A study of Drosophila melanogaster with 28 samples.

Results

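Aminoacyl-tRNA synthetases are the enzymes that join each amino acid to its tRNA, and the ribosome can use only tRNAs loaded in this way. The nuclear genome encodes a set of enzymes for the cytosol and a set that is imported into mitochondria, where it serves the translation of the few proteins encoded by mitochondrial DNA. Both sets are needed in nearly every cell and are therefore textbook housekeeping genes. The early fly embryo relies on mRNAs and proteins from the mother, and many genes start to be transcribed with the main wave of zygotic genome activation (ZGA). The maternal mRNAs of the synthetase genes were not examined here.

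The synthetase genes were chosen by symbol, as the abbreviation of an amino acid followed by RS, with the ending -m for the mitochondrial enzyme. This gave 35 of the 17588 genes with a matched transcript, 20 for cytosolic and 15 for mitochondrial enzymes. All 35 were among the 16513 genes tested, and their counts ran from 97 to 1115 reads per library. GluProRS is the fused enzyme for glutamate and proline, and alpha-PheRS and beta-PheRS are the subunits of the cytosolic enzyme for phenylalanine. No symbol with the ending -m was found for glycine, histidine, lysine, threonine or glutamine. In human cells the enzymes for glycine and lysine come from single genes that serve both compartments, and animal mitochondria make glutaminyl-tRNA by amidation of glutamyl-tRNA.

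Whole Drosophila melanogaster embryos were collected at stage 5, the stage of ZGA, and the occupancy of RNA polymerase II (Pol II) was read out with ChIP-seq against its Rpb3 subunit. Ctrl embryos carried the genotype labelled t180 and DomKD embryos the genotype labelled t216. According to the methods, DomKD embryos came from mothers in which mat-alpha-Gal4, a driver of the female germline, expressed an shRNA against both isoforms of Domino, the ATPase that deposits the histone variant H2A.Z, and a control TRiP line was used for Ctrl. Maternal Domino is thus depleted, whereas the zygotic dom gene is intact. There were 2 libraries per group, and the methods describe them as biologically independent. The comparison asks whether synthetase genes carry less Pol II at ZGA when maternal Domino is missing, and whether cytosolic and mitochondrial enzymes differ.

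Reads were counted over the whole span of a gene, introns included, and background reads therefore grow with its length. The sums over genes were 8326380 to 12022600 reads per library. Read density is given relative to the background density of the same library, that is 4.66 and 4.23 CPM per kb (CPM are counts scaled to the library total) for the Ctrl libraries and 4.41 and 7.01 CPM per kb for DomKD replicates 1 and 2. The highest background was therefore in DomKD replicate 2. The libraries of a pair differed by more than sampling noise, with a chi-square per degree of freedom of 2.23 for Ctrl and 27.5 for DomKD. The genes that mark stage 5 were strongly occupied (23 of 24 at 2 times background or more, median 22.4 times), those of later embryos were mostly at background (median 1.05 times, 2 of 12 occupied) and those of ovary follicle cells were low (median 1.39 times, 0 of 9 occupied). The dom gene had 617 and 664 CPM in Ctrl and 599.5 and 371 CPM in DomKD (adjusted p = 0.267), but the RNAi acts on the maternal mRNA and a zygotic Pol II signal does not check the knockdown. Except in densities, CPM refer to the library total after TMM scaling.

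The promoters of synthetase genes were searched for 5 short motifs within 250 bases before and 50 bases after the annotated start, as exact matches on either strand. These were the DRE (TATCGATA) and the core of Ohler1 (GGTCACAC), elements of dispersed housekeeping promoters, the E-box CAGCTG, which forms the core of the Ohler5 element, the TATA box (TATAAA) and the TAGteam motif bound by Zelda (CAGGTA). Their letters do not contain each other, but matches can overlap on the DNA. The E-box was held by 17 of 35 synthetase promoters (48.6%), against 16.8% of 16494 promoters tested and 20.1% of those of occupied genes. It was found at 10 of 20 cytosolic and at 7 of 15 mitochondrial enzymes. The DRE and the Ohler1 core were each held by 5 promoters (14.3%), against 8.02% and 6.65% of all promoters and 14.1% and 12.5% of those of occupied genes. TATAAA was found at 19 (54.3%, against 44.1% of all and 45.2% of occupied genes) and CAGGTA at 3 (8.57%, against 6.34% and 8.19%). In a shorter window, from 100 bases before the start, neither was more frequent than in all genes, with TATAAA at 22.9% against 23.2% of all genes and CAGGTA at 0 of 35 against 3.17%, whereas the E-box remained more frequent (37.1% against 11.1%). In addition, 21 of the 35 genes (60.0%) had the start of another gene on the opposite strand within 500 bases upstream, which held for 25.3% of all genes and 37.9% of occupied genes. The matches describe the letters in these windows, and no binding was measured.

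The 6 sequences printed here carry the motif arrangements behind these counts. Each runs 5′ to 3′ along the strand of the gene, from 100 bases before the annotated start to 30 bases after it (130 bases, dm6, from the RefSeq genome), with the matches to any of the 5 motifs in capitals. ArgRS (chrX:15844116-15844245, minus strand) and IleRS (chr3L:22288565-22288694, plus strand) have an E-box followed by a DRE. LeuRS (chr2L:3514627-3514756, minus strand) has 2 TATAAA matches and neither a DRE nor an E-box. AspRS-m (chr2L:16826978-16827107, plus strand) has the Ohler1 core just after the start. TyrRS (chr3L:16419273-16419402, minus strand) and AlaRS-m (chr3L:5145998-5146127, plus strand) have 2 E-boxes close together before the start. AlaRS-m also has 2 overlapping matches to TATAAA just before the start. The first 4 of the printed genes were lower in DomKD, and the other 2 were not called. TrpRS, which is not printed, also has an E-box followed by a DRE in the searched window and was not called.
ArgRS: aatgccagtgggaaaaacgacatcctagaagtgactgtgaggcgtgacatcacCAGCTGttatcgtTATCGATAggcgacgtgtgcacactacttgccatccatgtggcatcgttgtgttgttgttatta
IleRS: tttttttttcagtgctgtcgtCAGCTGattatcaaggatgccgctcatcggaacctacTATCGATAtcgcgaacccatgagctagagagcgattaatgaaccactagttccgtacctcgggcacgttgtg
LeuRS: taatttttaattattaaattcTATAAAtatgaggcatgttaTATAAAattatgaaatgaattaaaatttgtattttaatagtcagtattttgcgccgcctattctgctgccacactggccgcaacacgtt
AspRS-m: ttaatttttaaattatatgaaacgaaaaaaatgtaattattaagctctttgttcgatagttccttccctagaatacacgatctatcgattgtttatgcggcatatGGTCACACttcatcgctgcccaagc
TyrRS: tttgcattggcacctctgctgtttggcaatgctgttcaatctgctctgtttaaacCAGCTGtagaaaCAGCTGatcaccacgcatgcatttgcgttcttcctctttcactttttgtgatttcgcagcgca
AlaRS-m: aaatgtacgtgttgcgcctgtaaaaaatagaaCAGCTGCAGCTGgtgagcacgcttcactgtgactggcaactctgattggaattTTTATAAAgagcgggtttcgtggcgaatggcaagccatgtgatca

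Pol II density at synthetase genes was modest. The mean density over the 4 libraries was at least 2 times the mean background, which is called occupied in the following, at 21 of 35 genes (60.0%), against 36.1% of all genes tested. These were 11 of 20 cytosolic and 10 of 15 mitochondrial enzymes. Cytosolic and mitochondrial genes had about the same density, with medians of 2.13 and 2.07 times background. The difference of the median log2 density (cytosolic minus mitochondrial) was 0.03 and 0.10 in Ctrl replicates 1 and 2, and 0.05 and -0.02 in DomKD replicates 1 and 2. The sign thus changed between libraries. GluProRS (2.02 times) lay just above the limit for occupied genes and ArgRS-m (1.86 times) just below it.

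AlaRS, the enzyme for alanine, was the densest cytosolic gene, at 5.68 and 6.50 times background in Ctrl and 5.16 and 2.66 times in DomKD. The gene of the beta subunit of PheRS followed with 4.21, 4.20, 3.56 and 1.84 times background in the same order of libraries. In both genes DomKD replicate 1 was close to Ctrl in this measure and DomKD replicate 2 was far below it. The higher background of DomKD replicate 2 widens this gap. Before division by background, AlaRS had 26.48 and 27.5 CPM per kb in Ctrl and 22.75 and 18.65 CPM per kb in DomKD. Among mitochondrial enzymes, PheRS-m, which unlike its cytosolic counterpart acts as a single chain, had 5.96 and 6.89 times background in Ctrl and 3.36 and 2.66 times in DomKD. Before division by background, its DomKD densities were in the opposite order, at 14.81 and 18.65 CPM per kb in replicates 1 and 2. AsnRS-m had 5.98 and 5.94 times background in Ctrl and 2.88 and 1.46 times in DomKD, so that at both of these genes each DomKD library was well below both Ctrl libraries. HisRS, at 1.07, 1.06, 0.825 and 0.784 times background, and LysRS, at 0.998, 1.16, 0.890 and 0.765 times, were the lowest cytosolic genes. HisRS lies wholly within the span of Bx on the same strand, and their reads cannot be told apart. The lowest mitochondrial genes were ValRS-m (1.12, 0.788, 1.06 and 0.984 times) and MetRS-m (1.07, 1.17, 1.04 and 0.940 times). These 4 genes were at about the background in every library.

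**Figure D1:**
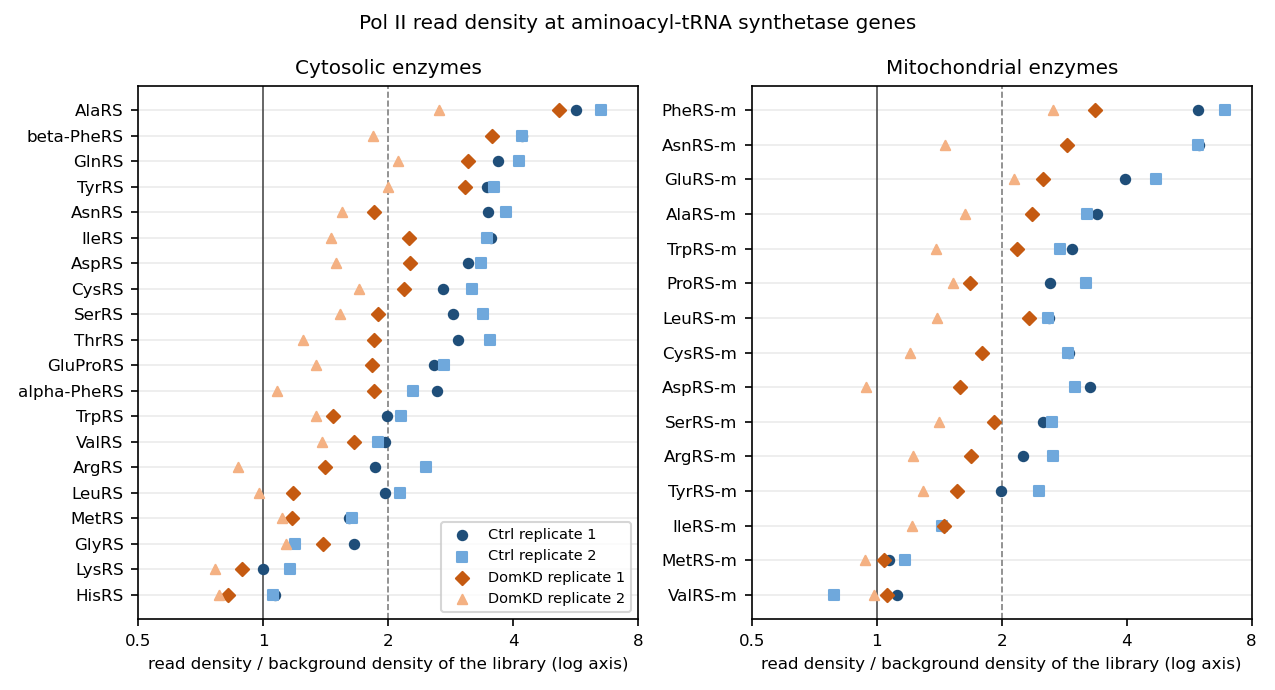
Read density of each synthetase gene in each library, divided by the background density of that library, on a log axis; the solid line marks the background and the dashed line 2 times background. Genes are ordered by their mean, from HisRS and ValRS-m at the bottom to AlaRS and PheRS-m at the top, and at most genes the DomKD points lie to the left of the Ctrl points, DomKD replicate 2 farthest.

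In density over the background of the library, 32 of 35 synthetase genes had both DomKD libraries under both Ctrl libraries, against 48.9% of all genes tested and 71.7% of occupied genes. The exceptions were GlyRS, IleRS-m and ValRS-m. The higher background of DomKD replicate 2 enters this measure directly, and its part in the count was not tested.

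DomKD embryos had less Pol II at 9 of 35 synthetase genes (edgeR likelihood ratio test, Benjamini-Hochberg adjusted p under 0.05 over all genes), and no synthetase gene was higher. The genes were AsnRS, ThrRS, IleRS, ArgRS and LeuRS of the cytosolic set and AsnRS-m, AspRS-m, PheRS-m and CysRS-m of the mitochondrial set. The share of 25.7% compares with 12.7% of all 16513 genes lower and 2.46% higher. Among occupied genes only, however, 7 of 21 synthetase genes (33.3%) and 30.6% of all occupied genes were lower, so the shares were near each other, although the occupied synthetase genes were less dense (median 2.42 times background, against 3.62 times). The mean over all 4 libraries also holds the change itself. By the Ctrl libraries alone, a split chosen after the data were seen, 27 synthetase genes were occupied and 9 of these were lower (33.3%), against 29.0% of all genes occupied in Ctrl. An unadjusted p under 0.05, in either direction, was reached by 16 of the 35 genes, against 5121 of the 16513 genes tested. The 16 include ValRS-m, whose value was above 0. Among occupied genes it was reached by 11 of 21 synthetase genes, against 2933 of 5963, so these shares were near each other. At 26 of 35 synthetase genes both DomKD libraries were under both Ctrl libraries in CPM, against 31.8% of all genes, and at 3 (MetRS-m, IleRS-m and ValRS-m) both were over, against 30.8%. Among occupied genes both were under at 20 of 21 synthetase genes, against 62.1%, and over at 0, against 455 of 5963.

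Without Ctrl replicate 1 or without Ctrl replicate 2, 1 synthetase gene was called (AsnRS-m), and the spread then came from the DomKD pair alone. The values moved less than the calls. Without either Ctrl replicate in turn, AsnRS was at -0.76 and -0.74 and AspRS-m at -0.86 and -1.10, and the 9 genes together ranged from -1.21 to -0.43. Without either DomKD replicate in turn, these 9 genes ranged from -1.48 to -0.43. The median synthetase gene was at -0.44 without DomKD replicate 1 and at -0.33 without DomKD replicate 2. All genes had medians of 0.05 and -0.004 in these fits, in which more synthetase genes and more genes in all were called. With 1 library left in a group, that library was assumed to vary like the other group, and the Ctrl pair was the more alike. Over all genes the split was 2091 lower to 406 higher with TMM scaling, 2474 to 145 with library size only, 265 to 0 with scaling on the stage 5 zygotic genes and 1193 to 1288 when only occupied genes were fitted. AsnRS-m and AspRS-m were lower under all of these scalings. AsnRS-m was the only synthetase gene called in each fit that left out a library and under each scaling.

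At AsnRS-m (chr2R:17001994-17003599, plus strand), the enzyme that loads asparagine in mitochondria, Pol II was 43.8 and 40.1 CPM in Ctrl and 22.8 and 15.1 CPM in DomKD. Both DomKD libraries were far below Ctrl, and the log2 fold change, -1.15 (SE 0.22, adjusted p = 1.44e-05), was the largest fall among the synthetase genes. Its 3′ end overlaps NiPp1 over 2.3% of the span, and NiPp1 itself was lower (log2 fold change -1.02). AspRS-m (chr2L:16827078-16831705, plus strand), the aspartate enzyme of mitochondria, overlaps no other gene and had 68.8 and 58.2 CPM in Ctrl and 36.2 and 28.1 CPM in DomKD. Its log2 fold change was -0.98 (SE 0.21, adjusted p = 0.000247), and its density in DomKD replicate 2 was down to background (0.943 times). PheRS-m (chr2R:13968308-13969902, plus strand) had 43.4 and 46.2 CPM in Ctrl and 26.4 and 27.3 CPM in DomKD. The DomKD libraries were close to each other here, and the log2 fold change was -0.73 (SE 0.20, adjusted p = 0.00441). CysRS-m (chr2R:14159096-14161262, minus strand), which loads cysteine, went from 28.8 and 26.3 CPM to 19.1 and 16.8 CPM (log2 fold change -0.62, SE 0.20, adjusted p = 0.0200). CG13016 overlaps 15.6% of the CysRS-m span on the opposite strand and was not called (log2 fold change -0.37, adjusted p = 0.182). The counting ignored strand.

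The cytosolic asparagine enzyme fell as well. AsnRS (chr2L:19129469-19131954, minus strand) had 39.5 and 40.2 CPM in Ctrl and 22.7 and 24.8 CPM in DomKD, and the log2 fold change was -0.75 (SE 0.20, adjusted p = 0.00345). ThrRS (chr2L:12103751-12107170, plus strand), the only threonine enzyme among these genes, had 46.0 and 50.6 CPM in Ctrl and 31.2 and 27.4 CPM in DomKD (log2 fold change -0.72, SE 0.20, adjusted p = 0.00659). Both genes had DomKD libraries of similar height that were clearly separated from Ctrl. IleRS, which loads isoleucine, lies at chr3L:22288665-22292810 on the plus strand, with 66.9 and 60.4 CPM in Ctrl and 45.8 and 39.0 CPM in DomKD (log2 fold change -0.59, SE 0.21, adjusted p = 0.0378). LeuRS, the leucine enzyme at chr2L:3510328-3514656 on the minus strand, had 38.9 CPM in both Ctrl libraries and 25.2 and 27.2 CPM in DomKD (log2 fold change -0.57, SE 0.20, adjusted p = 0.0337). ArgRS, which loads arginine, lies at chrX:15841769-15844145 on the minus strand and had the fewest reads of these 5 genes. It had 20.1 and 24.6 CPM in Ctrl and 16.5 and 13.3 CPM in DomKD (log2 fold change -0.58, SE 0.21, adjusted p = 0.0439). LeuRS and ArgRS were at 1.49 and 1.54 times background over all 4 libraries, under the limit for occupied genes, and at 2.05 and 2.14 times in Ctrl alone. None of these 5 genes overlaps another gene. The calls of IleRS, LeuRS and ArgRS were lost in DESeq2 and in the quasi-likelihood test of edgeR, and that of CysRS-m in DESeq2, at nearly the same fold changes (in DESeq2 -0.59, -0.58, -0.59 and -0.63, in this order).

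**Figure D2:**
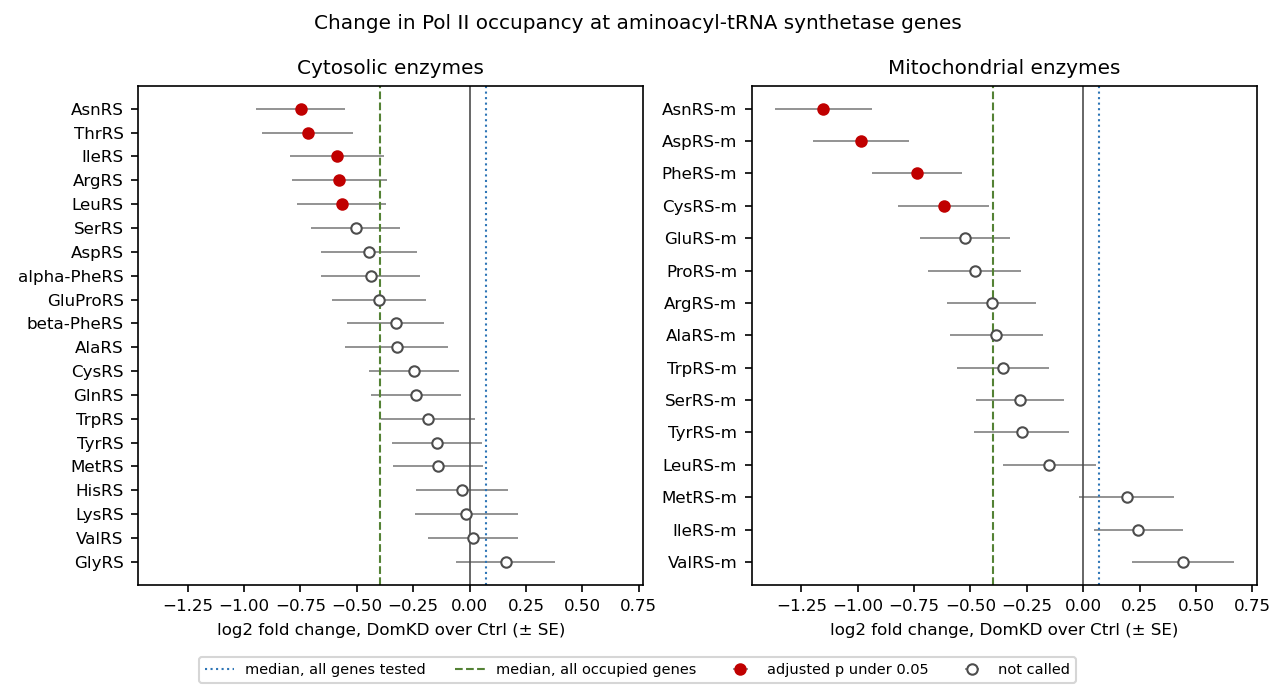
Log2 fold change (DomKD over Ctrl) of each synthetase gene with its SE; filled points passed an adjusted p of 0.05, the dotted line is the median of all genes tested (0.07) and the dashed line that of all occupied genes (-0.40). The 9 filled points lie at -0.57 or below, 18 of 20 cytosolic and 12 of 15 mitochondrial genes lie below 0, and MetRS-m, IleRS-m and ValRS-m are at 0.19 to 0.44.

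The other 26 synthetase genes were not called, and 21 of them had fitted values below 0. GluRS-m, the glutamate enzyme of mitochondria, came closest to the threshold (log2 fold change -0.53, adjusted p = 0.0535), followed by SerRS (-0.51, adjusted p = 0.0633) and ProRS-m (-0.48, adjusted p = 0.0929). The fused GluProRS had 73.8 and 71.8 CPM in Ctrl and 56.3 and 54.0 CPM in DomKD (-0.40, adjusted p = 0.165). Its groups did not overlap. The antisense gene asRNA:CR46092 lies wholly within GluProRS at its 5′ end, over 17.3% of the span, and was called lower (-0.64, adjusted p = 0.0286). As the counting ignored strand, its reads cannot be told apart from those of GluProRS. The subunits of cytosolic PheRS are needed in equal amounts, and they had fold changes of -0.44 (alpha-PheRS, adjusted p = 0.152) and -0.33 (beta-PheRS, adjusted p = 0.277). alpha-PheRS had 20.4 and 16.4 CPM in Ctrl and 15.5 and 11.8 CPM in DomKD, and beta-PheRS had 42.7 and 39.1 CPM in Ctrl and 39.0 and 26.3 CPM in DomKD. At both subunits, and at AlaRS (90.9 and 95.7 CPM in Ctrl, 89.1 and 60.0 CPM in DomKD, adjusted p = 0.311), DomKD replicate 1 lay just under the lower Ctrl library. HisRS (24.5, 22.3, 20.4 and 25.3 CPM, in the order of Ctrl and DomKD libraries) and LysRS (11.5, 12.3, 11.1 and 12.4 CPM) had overlapping groups.

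Values above 0 were found at 5 synthetase genes, none of which passed the test. The 3 largest were at mitochondrial enzymes. ValRS-m, the mitochondrial valine enzyme, had 17.9 and 11.6 CPM in Ctrl and 18.3 and 22.2 CPM in DomKD (log2 fold change 0.44, SE 0.23, adjusted p = 0.159). IleRS-m had 21.0 and 19.3 CPM in Ctrl and 22.9 and 25.1 CPM in DomKD (0.24, adjusted p = 0.378). MetRS-m, which loads methionine and has the longest span (10949 bases), had 53.4 and 53.8 CPM in Ctrl and 56.1 and 66.3 CPM in DomKD (0.19, adjusted p = 0.520). These 3 genes were below 2 times background, and at each of the 3 DomKD replicate 2 had the highest CPM of the 4 libraries. The median fitted value over all unoccupied genes was 0.26.

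Over all genes, the median log2 fold change fell with density up to about 3 times background, from 0.37 in the bin at 0.771 times to -0.48 at 3.08 times, and was higher again above this, at -0.34 in the bin at 7.34 times. The synthetase genes, at 0.915 to 4.70 times background, lay mostly on the falling side. Below 1.5 times background, the median log2 fold change of 8 synthetase genes was 0.07 and 1 was called lower, beside a median of 0.31 and 0.618% lower among the 8735 genes in this range. From 1.5 to 2 times background the median of 6 synthetase genes was -0.34, with 1 called, against -0.20 and 11.6% for all genes. From 2 to 3 times, where 15 synthetase genes lie, it was -0.45 with 5 called, against -0.43 and 31.9%. From 3 to 5 times it was -0.43 with 2 of 6 called, against -0.47 and 37.3%. With density from Ctrl alone, the shares called were 3 of 13 against 13.6% from 2 to 3 times, 4 of 11 against 36.6% from 3 to 5 times and 2 of 3 against 33.5% above this. When the model was fitted to occupied genes only, the median of the occupied synthetase genes lay 0.04 below that of all occupied genes. In this fit 4 of 21 synthetase genes were called lower (AsnRS-m, AspRS-m, PheRS-m and ThrRS), beside 1193 of all 5963 genes, a similar share.

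**Figure D3:**
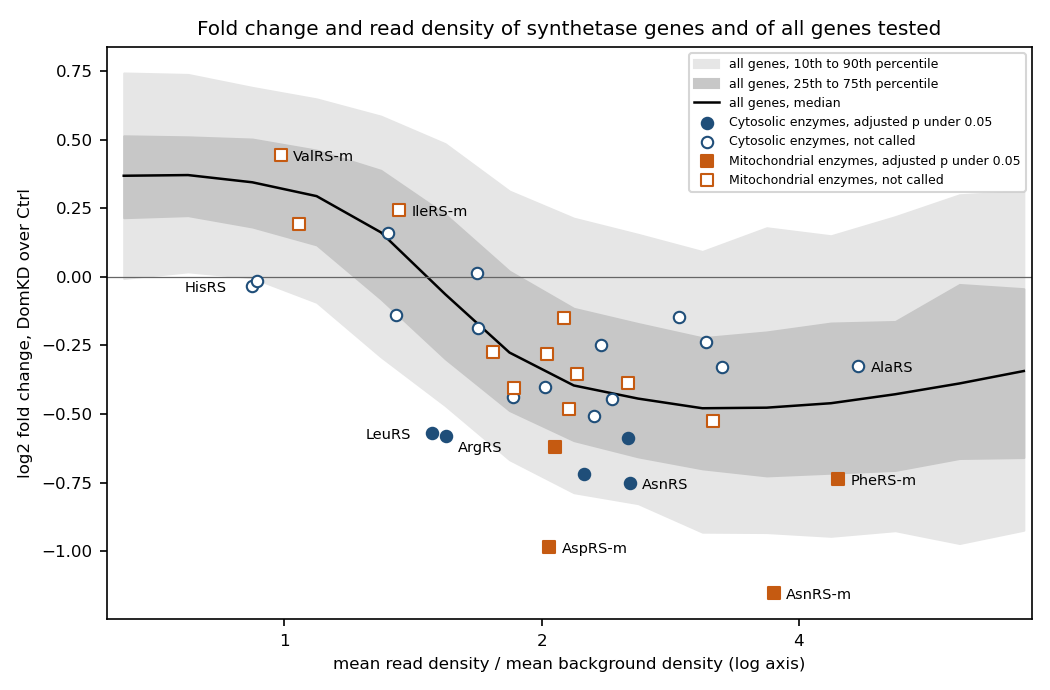
Log2 fold change against mean read density over mean background density (log axis) for cytosolic (circles) and mitochondrial (squares) synthetase genes, over the median and percentiles of all genes tested in bins of density. Most synthetase genes sit within the grey bands and follow the median downward from about 1 to 2 times background, whereas AsnRS-m, AspRS-m, LeuRS and ArgRS, and at the low end HisRS and LysRS, lie below the 10th percentile of genes of like density.

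The 2 DomKD libraries differed in their changes. Against the Ctrl mean, the median synthetase gene was at -0.31 in DomKD replicate 1 and -0.44 in DomKD replicate 2, where all genes had medians of 0.01 and 0.05. Occupied synthetase genes were at -0.37 and -0.49, and all occupied genes at -0.22 and -0.60. The synthetase genes thus lay below the occupied genes in DomKD replicate 1 and above them in DomKD replicate 2. The genes that mark stage 5 moved in opposite directions in the 2 libraries, with medians of 0.63 and -0.16, and those of later embryos were at 0.13 and 0.53. The part of these differences in the fall of the synthetase genes was not tested. Of the 35 genes, 18 were lower in DomKD replicate 2 than in replicate 1. After the background of each library was taken off, in densities without TMM scaling, 28 synthetase genes were above background in all libraries. Their median was -0.93 in DomKD replicate 1 and -1.30 in replicate 2. All 9348 genes above background in all libraries had medians of -0.53 and -1.10, and the occupied genes among them -0.53 and -1.12. The called genes AspRS-m, ArgRS and LeuRS were left out, because DomKD replicate 2 lay under background there. The choice of genes thus depends on the change itself. The sum over all synthetase genes was 1330 and 1300 CPM in Ctrl and 1050 and 983 CPM in DomKD. In whole embryos, fewer nuclei with Pol II on a gene and less Pol II per nucleus cannot be told apart.

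Cytosolic and mitochondrial enzymes had similar group medians. The median log2 fold change was -0.33 for cytosolic and -0.39 for mitochondrial genes, a difference of 0.06, with 5 of 20 and 4 of 15 called lower. With scaling on the stage 5 zygotic genes the medians were -0.60 and -0.61, with 0 and 2 called, and in the fit of occupied genes -0.03 and -0.12, with 1 and 3 called. The difference was not tested. It ranged from -0.01 to 0.10 over the alternatives tried, and the differences in density per library given above overlapped between Ctrl and DomKD. The single genes spread far more widely within each set, from -0.75 to 0.16 in the cytosolic and from -1.15 to 0.44 in the mitochondrial set. The sums were 792 and 782 CPM in Ctrl and 640 and 585 CPM in DomKD for cytosolic genes, and 541 and 514 CPM in Ctrl and 412 and 399 CPM in DomKD for mitochondrial genes. Both sums were lower in each DomKD library than in each Ctrl library.

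For 12 amino acids, 1 cytosolic and 1 mitochondrial gene could be matched by symbol. Phenylalanine, with its cytosolic subunit genes, and glutamate and proline, with the fused GluProRS, also have enzymes in both compartments but were left out of these pairs. The cytosolic gene was denser than its mitochondrial counterpart in all 4 libraries at 5 pairs (alanine, isoleucine, methionine, tyrosine and valine), and the mitochondrial gene was denser in all 4 libraries at 3 pairs (arginine, leucine and tryptophan). The largest gap in Ctrl was at isoleucine, where the log2 ratio of cytosolic to mitochondrial density was 1.30 and 1.27 in Ctrl and 0.63 and 0.27 in DomKD. At asparagine the order was reversed in Ctrl, with log2 ratios of -0.78 and -0.63, and the ratios were -0.64 and 0.08 in DomKD.

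In fold change, the cytosolic gene was the lower of the pair at 6 amino acids and the mitochondrial gene at the other 6. Asparagine was the only pair with both genes called, 5 pairs had 1 called gene, and 6 had none. For aspartate and cysteine the mitochondrial gene was called. AspRS, which had 87.4 and 86.9 CPM in Ctrl and 68.5 and 59.4 CPM in DomKD, had a log2 fold change of -0.45 (adjusted p = 0.130), against -0.98 for AspRS-m. Its span is covered to 80.3% by other genes, Nmda1 among them. CysRS had 34.2 and 37.0 CPM in Ctrl and 29.7 and 30.2 CPM in DomKD, a log2 fold change of -0.25 (adjusted p = 0.375) against -0.62 for CysRS-m. Its groups did not overlap, but the gap was small.

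For arginine, isoleucine and leucine the cytosolic gene was called. ArgRS-m had 31.9 and 34.6 CPM in Ctrl and 25.8 and 24.5 CPM in DomKD (log2 fold change -0.40, adjusted p = 0.141), and 28.1% of its span overlaps mRpS9. LeuRS-m had 37.7 and 34.6 CPM in Ctrl and 36.6 and 28.7 CPM in DomKD (-0.15, adjusted p = 0.615), with overlapping groups. IleRS-m was above 0, as described, so that the isoleucine pair was the one with the largest difference in log2 fold change, -0.83 for cytosolic minus mitochondrial. A call in one gene of a pair and not in the other does not show that the 2 genes differ, and the differences within pairs were not tested.

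**Figure D4:**
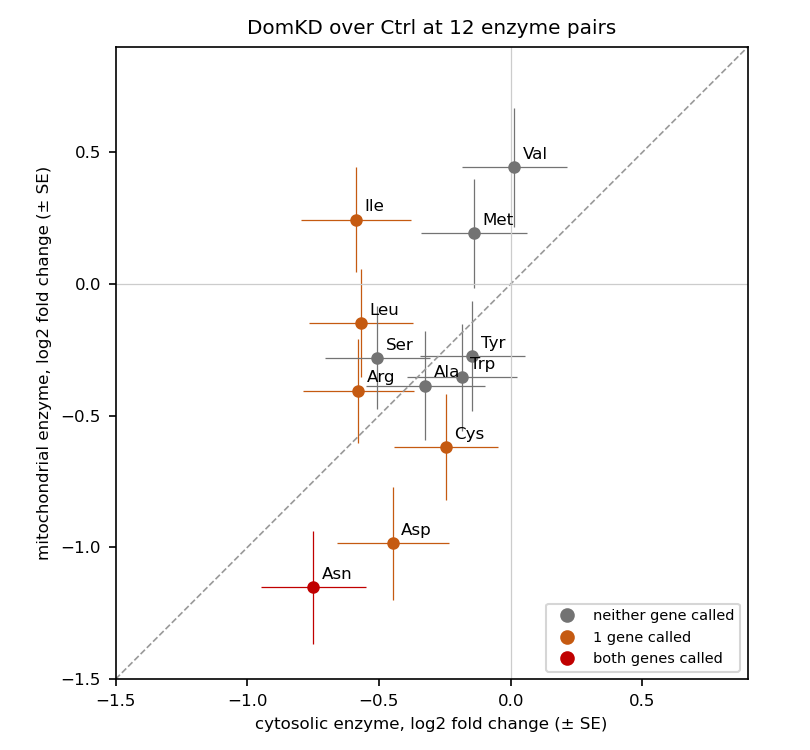
Log2 fold change (DomKD over Ctrl) of the cytosolic enzyme on the x axis and of the mitochondrial enzyme on the y axis for 12 amino acids, with SE bars; the dashed line marks equal values. Asparagine lies at the lower left with both genes called, isoleucine stands farthest above the line, and aspartate farthest below it.

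Genes free of overlap kept their calls. Of the 35 synthetase genes, 19 overlap no other gene, and a fit restricted to such genes called 7 of them lower, all among the 9. Over all genes in this fit, 1028 of 8173 were lower. The 2 sets differ in density, as 52.6% of these synthetase genes and 29.5% of all genes free of overlap were occupied. The 2 called genes that drop out of this fit are AsnRS-m and CysRS-m. SerRS-m lies wholly within Nagk on the opposite strand, and its value (-0.28, adjusted p = 0.308) cannot be separated from that of Nagk (-0.39, adjusted p = 0.172).

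Promoter motifs were set beside the calls without a test, in a grouping chosen after the values were seen. A DRE or an Ohler1 core was found at 5 of the 9 called synthetase genes (ArgRS, IleRS and PheRS-m with a DRE, AsnRS-m and AspRS-m with the Ohler1 core) and at 5 of the other 26. Among all genes tested, 26.8% of those with either motif and 10.4% of those without were lower in DomKD, and among occupied genes 35.8% and 28.9%. The E-box, which is held by so many synthetase promoters, was present at 2 of the 9 called genes and at 15 of the other 26. Over all genes, 15.2% of those with the motif and 12.2% of those without it were lower, and 30.5% and 30.7% among occupied genes.

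Genes that work with the synthetases were lower in part. Of 9 partners and paralogs, 2 were lower and 0 higher (median log2 fold change -0.32): AIMP2, a scaffold of the complex that holds several cytosolic synthetases (-0.86, adjusted p = 0.00237), and GatC, a subunit of the mitochondrial amidotransferase (-0.86, adjusted p = 0.00441). The other scaffold genes AIMP1 (-0.32) and AIMP3 (-0.12), the amidotransferase genes GatA (-0.33) and GatB (0.28), and Slimp (-0.21), a paralog of the seryl-tRNA synthetases, were not called. Of 8 elongation factors that carry loaded tRNAs to the ribosome or recharge these carriers, 1 was lower, eEF1alpha1 (-0.65, adjusted p = 0.0381), and the median was -0.38. Of 20 genes for tRNA synthesis and maturation, 8 were lower and 0 higher (median -0.46). They included Polr3B (-0.87, adjusted p = 0.000681) and Polr3I (-0.94, adjusted p = 0.000977), subunits of RNA polymerase III, and the tRNA methyltransferase genes Nsun2 (-0.84, adjusted p = 0.00186) and Mt2 (-0.87, adjusted p = 0.00259). For comparison, 12.7% of all genes and 30.6% of occupied genes were lower. Of the partners, elongation factors and genes of tRNA synthesis, 7 of 9, 8 of 8 and 13 of 20 were occupied. All 11 calls were lost without Ctrl replicate 1 and also without Ctrl replicate 2, whereas 26 were made without DomKD replicate 1.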

How the data were processed

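The authors mapped the trimmed reads to dm6 with snakePipes and kept properly paired reads without duplicates. The deposited table holds raw counts per transcript, made with featureCounts over the whole transcript span without regard to strand. Reads that overlapped several transcripts were counted for each of them. No input was subtracted. The 4 stage 5 Rpb3 libraries of the table were used and the other 24 samples of the series were not used here.

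Transcripts were joined by identifier to the Ensembl BDGP6.54 annotation, which has dm6 coordinates; 34516 of 34793 matched and 34413 of these had the same span. Each gene is represented by its transcript of highest mean count. Genes with a span of at least 125 nt and more than 10 reads over the 4 libraries entered the likelihood ratio test (edgeR 4.0.16 in R 4.3.3, TMM factors), and p-values were adjusted by Benjamini-Hochberg over all genes, with a threshold of 0.05. The study scaled on its own Zelda targets, which were not used here. The test was checked on simulated counts with known changes, which had the same spread in both groups and no difference in background. The check thus does not cover the unequal spread of the Ctrl and DomKD pairs. CPM use TMM-scaled totals; densities use unscaled totals. Background density is the mode of log2 density (kernel bandwidth 0.1) among genes that span more than 2000 nt, found in each library. A gene is called occupied when its mean density over the libraries is at least 2 times the mean background. Precision is limited by 2 libraries per group; the biological coefficient of variation was 0.151.

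Promoter letters were read from the RefSeq genome of the same assembly, in which 66 of 66 annotated start codons of the synthetase genes read ATG; 16494 promoters could be read. Alternatives were other scalings, tests (DESeq2 1.42.0), filters, transcripts, a replicate block, background taken off, and each library left out.

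The members, gene lists, tests and alternatives were chosen with earlier results of these data known. Values per library are given for synthetase genes with an adjusted p under 0.05, the 2 densest and 2 least dense of each compartment, the 3 largest rises and falls, GluProRS and the PheRS subunits, and pairs with 1 called gene. Apart from dom, the target of the knockdown, other genes are named only from the lists of partners and markers or where they overlap a named gene.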

Additional observations from a re-analysis of the deposited data

How the results depend on the processing

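The count of synthetase genes lower in DomKD (9) was 2 with TMM factors from the stage 5 zygotic genes, 4 when only occupied genes were fitted, 6 with the quasi-likelihood test, 5 with DESeq2 and 5 with a replicate block (the same genes lost their calls in both), and it ranged from 1 to 21 when each library was left out. Of all 16513 genes, 1721 were lower with the quasi-likelihood test, 1106 with DESeq2 and 1643 with a replicate block. Under the zygotic scaling the all-gene median shifted by -0.20 and in the fit of occupied genes by -0.11. Relative to all genes in the fit, the synthetase median was -0.47 and -0.04, beside -0.44 with library size only. Synthetase genes called higher were 0 in all of these, apart from a range of 0 to 2 over the left-out libraries. The calls over all genes (2497) were 265 with the zygotic scaling, 1155 with DESeq2 and 1143 over genes that overlap no other gene, with a range of 137 to 8825 over the left-out libraries. Of the partner genes, 1 was called with the zygotic scaling, and 0 to 26 over the left-out libraries.

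The median log2 fold change of cytosolic genes was -0.60 with the zygotic scaling, -1.11 with the background taken off and -0.029 in the fit of occupied genes, and -0.45 to -0.28 over the left-out libraries. For mitochondrial genes it was -0.61, -1.09 and -0.12, and -0.44 to -0.34. Their difference was 0.0066 with the zygotic scaling and -0.014 with the background taken off, and -0.0085 to 0.086 over the left-out libraries. With the background taken off, the medians cover only the 16 cytosolic and 12 mitochondrial genes above background in all libraries. The difference in median log2 density was 0.0083 in Ctrl and 0.11 in DomKD with the shortest transcripts, and -0.058 in Ctrl with means in place of medians. At 3 times background 6 synthetase genes were occupied. With density from Ctrl alone, added after seeing the data, 27 were at 2 times background. The cause of these shifts was not tested.

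Same-numbered replicates did not deviate together (correlation of same-numbered deviations -0.20). With 2 libraries per group this cannot show whether replicate numbers pair the samples. The replicate block changed the calls as given. A crossed block, chosen after seeing the data, called 11 synthetase genes and 2680 lower and 732 higher genes in all. The filters on reads, the longest or shortest transcript and library size only each left 9 synthetase genes called, the same 9. No single gene changed its direction among the called results. At this depth, with 2 libraries per group and a higher background in DomKD replicate 2, genes near background could not be told from unoccupied genes.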
